A study of Mus musculus with 8 samples.

Results

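Trimethylation of histone H3 at lysine 4 (H3K4me3) was spread over more bases at 60M than at 5M in 2019 regions that carried the mark at both ages and lay clear of H3K27me3. The regions come from mouse germline stem cells, which are spermatogonial stem cells kept in culture. They were chosen from the 4 H3K4me3 peak lists, after peaks of these lists that shared at least 1 bp had been merged into 54585 regions. A region was kept when it held a peak in all 4 lists, overlapped no H3K27me3 peak in any library, and had more covered bases in both 60M lists than in both 5M lists. Regions with a single peak of 5 kb or more in all 4 lists were left out. The members make up 3.7% of all merged regions and 5.73% of the 35229 regions listed in all 4 libraries.

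H3K4me3 is laid down by methyltransferases of the COMPASS family and removed by demethylases of the KDM family. It sits on nucleosomes around transcription start sites, mostly where CpG-rich promoters are active or poised. Narrow domains mark most such promoters, while broader ones have been described at genes with steady, cell type related transcription. H3K27me3, deposited by Polycomb repressive complex 2, marks silenced genes, and regions with both marks are called bivalent. Keeping clear of H3K27me3 thus leaves out bivalent regions as far as the lists show them.

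The series holds chromatin immunoprecipitation sequencing of H3K4me3 and H3K27me3 in germline stem cells after some 60 months of culture (60M) and after some 5 months (5M), 2 libraries each. All groups share 1 origin: testis cells, labelled wild type, of Green mice carrying the transgene Tg14(act-EGFP)OsbY01 on a DBA/2 background. Their medium contained GDNF, FGF2 and fetal bovine serum, so the cultures differ by time only as far as the labels say. The labels name no separate cultures or animals for the libraries, so their spread may be technical, and an effect of 1 culture cannot be told apart from one of culture time. The H3K4me3 lists held 43699 and 41637 peaks at 60M and 45933 and 47415 at 5M, the H3K27me3 lists 12002 to 14940, and the sequencing depth is unknown. Positions are given as listed, in bins of 1000 bp. They follow the chromosome lengths of mm9, for which no annotation or genome was used here, so regions carry no gene names or sequence, and the cell type could not be checked against marker genes.

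The members were short stretches that grew by 1 bin in most cases. The mean covered length per member was 2.92 and 2.90 kb in the 60M libraries, against 1.76 kb in each 5M library, or 2.91 ± 0.00946 kb against 1.76 ± 0.00175 kb (SD, n = 2 each), a difference of 1.15 kb. These lengths chose the members and are given without a test. Among the 29639 regions that could have been called, having a peak in all 4 lists, no H3K27me3 peak and no broad peak in all 4, 6.81% were wider at 60M. The mirror rule found 754 regions narrower at 60M, or 2.54%. The ratio of wider to narrower regions was 2.68, and covered length was the same in all 4 lists at 19890 regions (67.1%). Leaving out a library raises the counts by construction, since the other library of its age then decides alone. A peak in the library left out is also no longer required, so the candidates change. There were 3301 wider and 1715 narrower regions of 30839 candidates without 60M library 1. Without 60M library 2 there were 3264 wider and 1507 narrower regions of 31455. Leaving out 5M library 1 gave 2739 wider and 1558 narrower regions of 29914, and leaving out 5M library 2 gave 3254 and 987 of 30452.

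**Figure D1:**
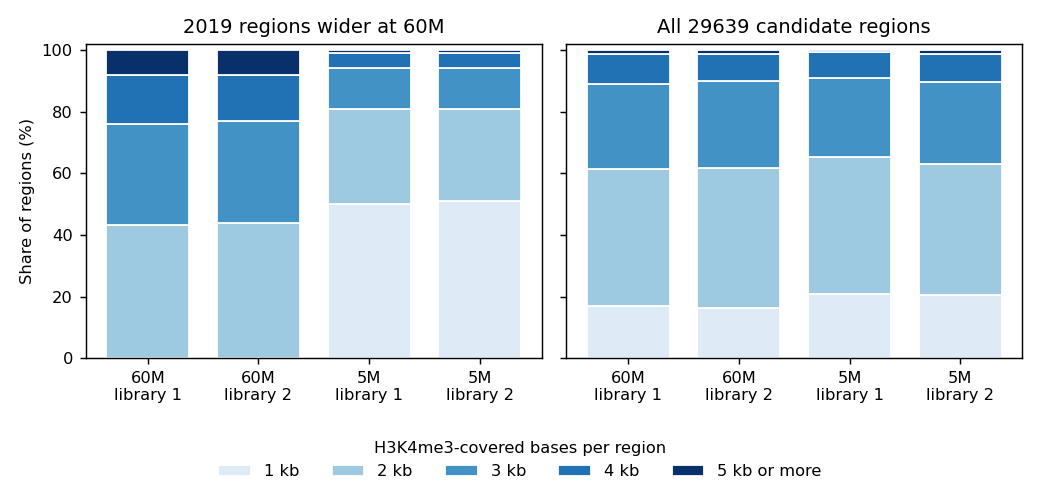
Share of regions (%, vertical axis) by H3K4me3-covered length per region in each of the 4 libraries, for the 2019 members (left) and all 29639 candidate regions (right). No member covers 1 kb in a 60M library, by the rule, while 1010 and 1028 of them do in the 5M libraries.

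Covered length was equal in both 60M lists at 1812 members (89.7%) and in both 5M lists at 1902 (94.2%). The rule favours regions whose libraries of an age have like lengths, so these shares are no support for the calls. Over all candidates they were 83.9% at 60M and 87.2% at 5M, and over the narrower regions 92.2% and 92.8%. The commonest pattern, at 825 members (40.9%), was 2 kb in both 60M lists against 1 kb in both 5M lists. A further 497 members (24.6%) had 3 kb against 2 kb, 214 (10.6%) had 4 kb against 3 kb, and 73 (3.62%) had 5 kb against 4 kb. An excess of the lower 60M list over the higher 5M list of 1 kb, the smallest the bins allow, was found at 1895 members (93.9%), of 2 kb at 110 and of 3 kb at 14. With an excess of at least 2 kb required, 124 regions were wider and 55 narrower, or 0.418% and 0.186% of the candidates.

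The same measure was also read with calls made from 1 library per age and looked up in the other pair. All 4 lists had set the regions and the candidates beforehand. When candidate regions were called from 60M library 1 and 5M library 1 alone, 4424 (14.9%) were wider at 60M and 1674 (5.65%) narrower. Of these, 2097 (47.4%) were also wider in 60M library 2 than in 5M library 2, and 402 (9.09%) were narrower. Among all candidates, 13.5% were wider and 8.95% narrower in that second pair. Each of the 4 ways to choose 1 library per age was read like this, and 46.1 to 53.6% of wider calls recurred in the pair not used, where 13.1 to 15.3% of all candidates were wider. Narrower calls recurred at 29.3 to 46.5%, where 5.65, 6.5, 8.14 and 8.95% of all candidates were narrower in the 4 pairs of libraries. Equal lengths followed 41.4 to 46.0% of the wider calls. Calls in both directions thus recurred at a higher share than among all candidates. The 2 pairs of a reading share no library, but together they are the 4 lists that chose the members, and the 2097 regions wider in both numbered pairs include all 2019. These shares describe how often single-pair calls recur and are no independent support for the members.

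**Figure D2:**
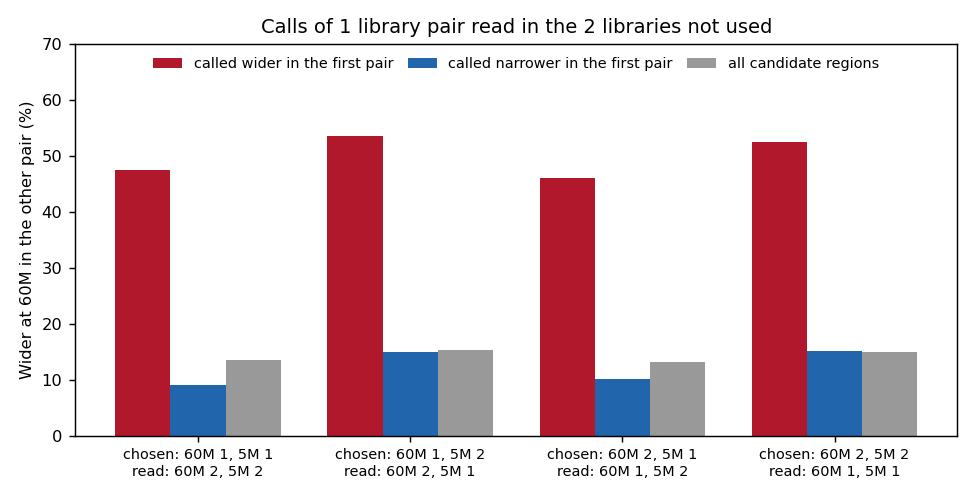
Share of regions (%) wider at 60M in the pair of libraries not used for the call, for regions called wider (red), called narrower (blue) or all candidates (grey), in each of the 4 ways to choose 1 library per age. Wider calls recurred at 46.1 to 53.6%, and all candidates were wider at 13.1 to 15.3%.

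Regions that were 1 kb long at 5M were the most frequent source of members. Grouped by the longer of their 5M lengths, members made up 990 of 5392 candidates (18.4%) at 1 kb, 629 of 12890 (4.88%) at 2 kb, 273 of 8085 (3.38%) at 3 kb, 104 of 2880 (3.61%) at 4 kb and 23 of 392 (5.87%) at 5 kb or more. The classes use the 5M lengths that the rule compares, and a region of 1 kb at 5M cannot be shorter at 60M. The order of these shares is thus a description only. At the long end, 133 members (6.59%) held a peak of 5 kb or more in both 60M lists and in neither 5M list, as did 0.452% of all candidates, which the rule favours as members. Per library, 159 and 158 members had such a peak at 60M, against 2 and 7 at 5M.

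The added bases lay on 1 side of the 5M peak at most members, with like shares for either side. A gain of a single 1 kb bin can lie on 1 side only in a library, so the bins favour this. An excess of 1 kb, found at 93.9% of members, still allows mean borders to move on both sides. Mean borders at 60M lay outside those at 5M on the lower-coordinate side alone at 832 members (41.2%), on the higher side alone at 861 (42.6%) and on both sides at 291 (14.4%). The strand of the nearest gene is unknown here, so these sides are those of the chromosome and not upstream or downstream. The first bin below the outermost 5M border was covered at 50.1 and 50.3% of members in the 60M libraries, and the first bin above it at 52.1 and 51.5%. In the second bin these shares were 2.33 and 2.08% below and 2.87 and 2.58% above. Where both 60M borders had to lie outside both 5M borders, 92.2% of the members moved on 1 side only, against 83.9% for mean borders. Among the 124 members with an excess of at least 2 kb, 54 (43.5%) moved on 1 side only and 65 (52.4%) on both. The others of the 291 that moved on both sides had an excess of 1 kb. Among the 754 narrower regions, mean borders moved in on 1 side only at 676 (89.7%) and on both at 76 (10.1%).

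**Figure D3:**
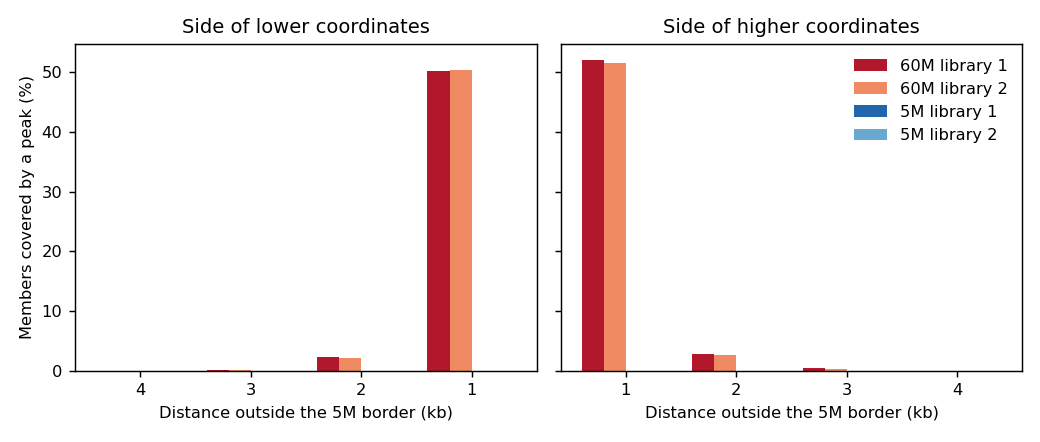
Share of the 2019 members (%) covered by an H3K4me3 peak of the same region in each library, by distance in kb outside the outermost 5M border, on the side of lower (left) and higher (right) coordinates. Coverage in the 60M libraries is 50.1 to 52.1% in the first bin and 2.08 to 2.87% in the second, and it is 0 in the 5M libraries by construction.

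A further 35 members (1.73%) moved out at neither mean border and gained bases inside. Their covered length averaged 4.97 kb at 60M and 3.76 kb at 5M. Joined peaks were counted over all members: 48 (2.38%) held at least 2 peaks in both 5M lists and 1 peak in both 60M lists. This was so at 59 (0.199%) of all candidates. How many of the 35 had joined peaks was not counted. Single peaks in all 4 lists were the rule, at 1920 members (95.1%) and at 29330 candidates.

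As a whole the members ranked lower in strength than candidates that were not wider, and their lower ranks stood higher in the 60M lists. Strength was the authors' maximum signal per peak, taken for the strongest peak of a region as a percentile within its list. The summit column of the same lists lay in the first bin of most 3 kb peaks, and whether the maximum signal shares this fault was not tested. The median percentile of the members was 53.4 and 50.2 in the 60M libraries, against 45.9 and 46.3 in those of 5M, a mean difference of 5.72 percentile points. For the 27620 candidates that were not wider, the medians were 59.6 and 56.9 at 60M and 62.2 and 63.0 at 5M, a difference of -4.33. The narrower regions had medians of 53.9 and 48.9 at 60M and 65.1 and 66.3 at 5M, a difference of -14.3, so at 60M they ranked as low as the members. Width and strength come from the same peak calls, so these values are a description of the chosen regions and no test was made. With the same 2019 members, the difference was 4.13 without 60M library 1 and 5.53 to 7.31 without 1 of the others. With the regions called anew, it was 2.44 over 3301 regions without 60M library 1 and 9.08 over 1739 regions in lists shortened to 41637 peaks, beside -0.861 for candidates that were not wider in the shortened lists.

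**Figure D4:**
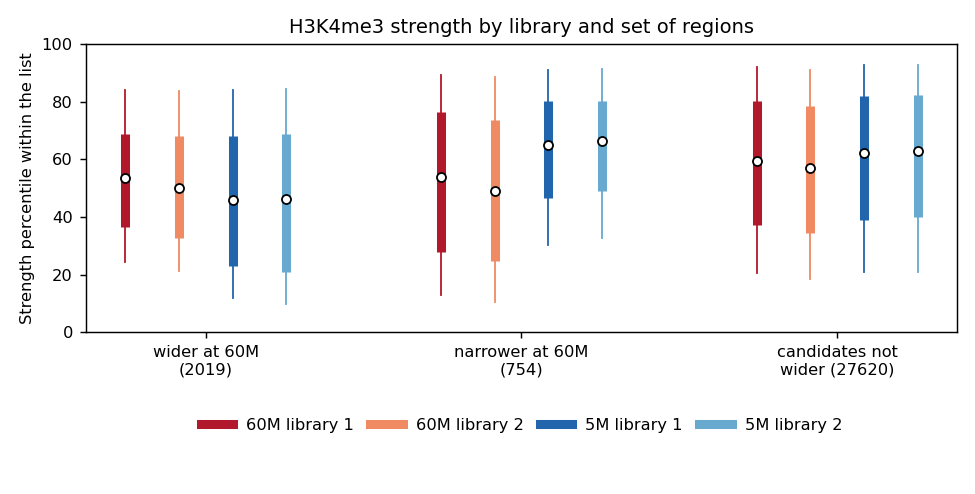
Strength percentile within each H3K4me3 list for members, narrower regions and candidates that were not wider, with the median (circle), the 25th to 75th percentile (thick bar) and the 10th to 90th percentile (thin line) per library. The 10th percentile of the members is 24.5 and 21.2 at 60M and 11.9 and 9.81 at 5M, while their 90th percentile runs from 83.7 to 84.5 in all 4 libraries.

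Ranks were higher in longer classes up to 4 kb. With regions grouped by their longer 5M length, the order of members and candidates changed between the ages at 1 kb only. Where the longer 5M length was 1 kb, the members' median percentile was 38.4 and 34.5 in the 60M libraries, against 24.7 and 22.8 in those of 5M, 12.7 points apart. All candidates of that length had 30.1 and 27.8 at 60M and 27 in both 5M libraries, 1.95 apart. At 2 kb the members had 63.3 and 61.3 at 60M and 59.3 and 60.3 at 5M, 2.49 apart, and the candidates 50.5 and 47.5 at 60M and 52.8 and 53.6 at 5M, or -4.18. Members of the 1 kb class ranked above the candidates of that class at 60M and below them at 5M. Those of the 2 kb class ranked above them at both ages. The classes match the 5M length only. Members of the 1 kb class cover at least 2 kb at 60M by the rule, so these orders are descriptions. At 3 kb the members differed by -0.567 and the candidates by -2.57, and at 4 kb by -1.3 and -1.27. At 5 kb or more, with 23 members, the differences were 1.12 and -1.19. In these longer classes the members' medians lay below those of the candidates in every library. At 3 kb the members had 78.7 and 78.1 at 60M, against 80.7 and 79 for the candidates. The 5M medians there were 78.5 and 79.4, against 82.2 and 82.6. Members extended on the lower side alone and on the higher side alone differed by medians of 3.36 and 2.81 points per region, and those extended on both sides by 6.97.

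Over all members, 1086 (53.8%) ranked higher in both 60M lists than in both 5M lists and 356 (17.6%) ranked lower in both. The shares over all candidates were 18% and 49.3%. For the candidates that were not wider they were 15.4% and 51.7%. Confidence of the calls moved alike: the members' -log10 p against the control reached its ceiling of 15.95 at 89.6 and 89.2% of them in the 60M libraries, against 65.9 and 63.6% in those of 5M. Over all candidates the shares were 87.2 and 87.8% at 60M and 82.3 and 82.1% at 5M. The members' median maximum signal was 237 and 240 at 60M, against 162 in both 5M libraries, on a scale of unknown normalization. On this scale the median of all candidates was also higher at 60M, at 277 and 279, against 256 in both 5M libraries. The part of this general shift in the widening was not tested.

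The 12 members with the largest excess gained at least 3 kb in both 60M lists over both 5M lists, and several had a single peak that grew from a fixed end. On chromosome 1 (166386000 to 166392999) the peak covered 7 kb in both 60M libraries and 4 kb in both 5M libraries, with the lower border in place. Its strength percentile was 86.7 and 81.6 at 60M and 86.9 and 87.5 at 5M, so this region widened at a rank no higher than at 5M. On the X chromosome (99041000 to 99046999) the peak covered 6 kb in both 60M libraries and 3 kb in both 5M libraries, and here the higher border stayed in place. A region on chromosome 5 (66993000 to 66996999) likewise kept its higher border, with 4 kb at 60M and 1 kb at 5M in both libraries of each age.

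Other regions of the 12 grew on both sides. On chromosome 17 (34228000 to 34232999) the peak covered 5 kb in both 60M libraries and 2 kb in both 5M libraries, 2 kb of the gain at lower and 1 kb at higher coordinates. A region on chromosome 11 (96911000 to 96914999) covered 4 kb in both 60M libraries and 1 kb in both 5M libraries. It also ranked higher, with percentiles of 66.9 and 70.7 for the 60M libraries, against 42.3 and 46.7 for those of 5M. Another region on the same chromosome (99278000 to 99282999) covered 5 kb at 60M and 2 kb at 5M. Its percentiles were 69.2 and 63.0 against 62.3 and 63.9, which overlap. The pair shows that a like gain in length went with a higher rank at 1 site and with overlapping ranks at the other. At this second site the maximum signal was 368.8 and 328.4 at 60M, against 264.9 and 270.4 at 5M. Regions on chromosome 4 (139957000 to 139962999, 6 kb at 60M, 3 kb at 5M) and chromosome 7 (118002000 to 118005999, 4 kb at 60M, 1 kb at 5M) grew on both sides as well. In each of these the libraries of an age had equal lengths.

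The remaining 4 of the 12 had divided peaks in at least 1 library, and closed gaps and longer peaks both added bases there. On chromosome 2 (164958000 to 164963999) a single peak of 6 kb in both 60M libraries stood where both 5M libraries had 2 peaks, of 1 kb and 2 kb. Its percentile was 66.9 and 59.9 at 60M and 43.7 and 38.5 at 5M, and the ages did not overlap. On chromosome 16 (57264000 to 57271999) both 5M libraries had 2 peaks of 2 kb each. There 60M library 1 had a single peak of 8 kb and 60M library 2 had 2 peaks of 2 and 5 kb, so the gap was closed in 1 library only. On chromosome 7 (29746000 to 29752999) the covered length was 6 and 7 kb at 60M, against 3 kb in each 5M library, as 2 peaks in 60M library 1 and 5M library 1 and as 1 peak in the other two. The weakest of the 12, on chromosome 2 (173546000 to 173551999), covered 6 and 5 kb in the 60M libraries, set against 1 and 2 kb in those of 5M, at percentiles of 34.8 and 35.6 against 13.8 and 3.77.

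**Figure D5:**
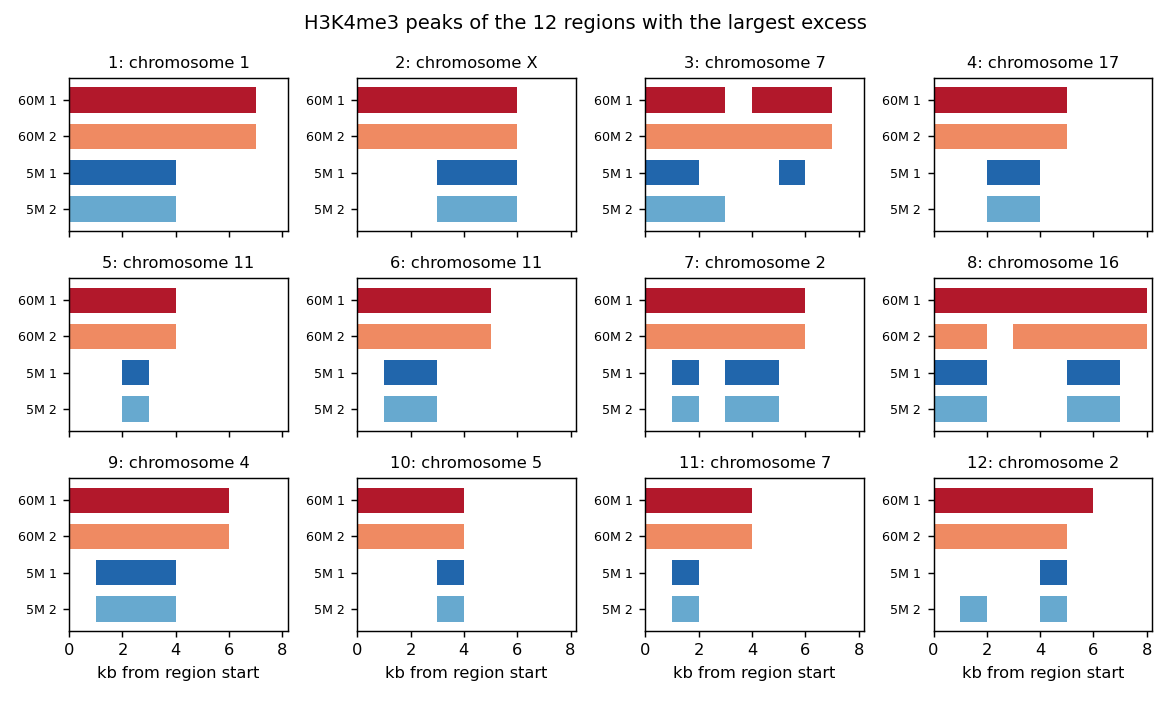
Listed H3K4me3 peaks (bars) of the 12 members with the largest excess, by distance in kb from the start of the region, with the 60M libraries in red shades above the 5M libraries in blue shades. In every panel both red rows cover at least 3 kb more than either blue row, and in panels 3, 7, 8 and 12 peaks are divided in at least 1 library.

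The strongest members, chosen by their rank, were near the top of every list. Their excess was 1 kb, as at 93.9% of all members. The 8 members with the highest mean percentile over the 4 lists had means of 99.5 to 100 and lay on chromosomes 2, 4, 9, 11 and 15. The first, on chromosome 4 (8615000 to 8619999), covered 5 kb in both 60M libraries and 4 kb in both 5M libraries. Its maximum signal was 844.3 and 759.8 at 60M and 861.3 and 807.7 at 5M, among the tallest peaks of each list. The next were on chromosome 15 (79841000 to 79845999) with 5 kb at 60M against 4 kb at 5M, and on chromosome 11 (76435000 to 76438999 and 59917000 to 59920999) with 4 kb against 3 kb. At 7 of the 8 the lengths were equal within each age and 1 kb apart, and the exception was chromosome 11 (97487000 to 97493999), where both 60M libraries had 7 kb, against 5 and 6 kb at 5M.

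At the border of the rule, regions just inside and just outside differed by 1 bin in a single library. The 4 strongest members with an excess of 1 kb are the first 4 of those 8. Just outside, 3724 candidates (12.6%) had a tie between the lower 60M and the higher 5M length and a higher 60M mean. The strongest of these, on chromosome 3 (51143000 to 51147999), covered 5 and 4 kb at 60M, against 4 kb in each 5M library. That on chromosome 11 (72419000 to 72422999) covered 4 kb in each 60M library, against 3 and 4 kb at 5M. Those on chromosome 17 (66796000 to 66800999 and 51950000 to 51953999) likewise missed by 1 library, the first with 5 kb in each 60M library against 4 and 5 kb at 5M, the second with 3 and 4 kb at 60M against 3 kb in each 5M library.

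The members were spread over all 20 chromosomes of the lists. Their share of the candidates ran from 4.95% on the X chromosome (44 of 889) to 8.19% on chromosome 12 (95 of 1160), with 8.17% on chromosome 10, and wider regions outnumbered narrower ones on every chromosome, by 2.06 to 3.53 times. Within 10 Mb of the last listed region of a chromosome lay 13.6% of the members, 10.7% of the narrower regions and 10.9% of all candidates, and within 10 Mb of the first 6.34%, 5.31% and 6.24%. The nearest candidate was itself a member for 127 members (6.29%), beside 6.86% for all candidates, and their median gap to it was 15 kb, beside 16 kb for all candidates. An H3K4me3 region listed in both 5M and neither 60M library lay within 5 kb of 84 members (4.16%) and 2.44% of all candidates, and one listed in both 60M and neither 5M library within 5 kb of 34 members (1.68%) and 1.58% of candidates. These neighbours come from the same lists as the rule, so the shares are descriptions.

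H3K27me3, which the rule had kept off the members themselves, was read in their surroundings as a separate measurement. A peak of this mark lay within 10 kb of 16.2 and 12.7% of the members in the 60M libraries, against 10.7 and 13.3% in those of 5M, so the ages overlapped. The means were 14.4 ± 2.49% at 60M and 12 ± 1.79% at 5M (SD, n = 2 each), with a difference of 2.43 percentage points. An exact two-sided permutation test over the 4 libraries gave p = 0.667, where the smallest p this design allows is 0.33. The difference was 0.669 points without 60M library 1, 4.19 without 60M library 2, 1.16 without 5M library 1 and 3.69 without 5M library 2. All candidates had 15.7 and 13.1% at 60M and 11.4 and 14.2% at 5M, in the same order of libraries. Within 5 kb the shares were 11.2 and 8.82% at 60M and 6.39 and 8.47% at 5M, so the ages were only narrowly apart. Their means were 10.0 and 7.43% (p = 0.33, exact permutation test, the smallest possible). All candidates had 11.3 and 9.06% at 60M and 7.44 and 9.82% at 5M, which overlap, at means of 10.2 and 8.63%. The H3K27me3 lists held 14940 and 13037 peaks at 60M and 12002 and 14632 at 5M. Within 5 and 10 kb the longest list gave the highest share of members and the shortest the lowest. The part of list length in these shares was not tested.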

How the data were processed

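The authors deposited 1 peak list per library, called per library. The submitters' processing notes name Bowtie 1.1.2, CASAVA 1.8.4 and build mm10, and which program called the peaks is not given here. Of 233295 listed peaks, 1327 end more than 1 kb past an mm10 chromosome, on 9 chromosomes, and 0 past an mm9 one (lengths from GenomeInfoDb 1.38.1). The deposited maximum signal (never below 0, scaling not given) was ranked within each list. The deposited −log10 p-values against the control run from 3.01 to 15.95, and the q-value reaches 0.00097, per the file headers. Depth is unknown, and so a missing peak does not show a missing mark. The listed summit was not used: in 3 kb H3K4me3 peaks it lay in the first bin in 64.1 to 65.6% and in the last in 0.478 to 0.887%, while in the H3K27me3 lists it lay in the first in 23.8 to 25.6%.

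Peaks were merged and measured with Python 3.11.15 (pandas 2.3.3, numpy 2.4.6, scipy 1.17.1), and plots were drawn in matplotlib 3.10.9. The calling code was checked on copies of a single list with planted wider and narrower regions. Borders did not otherwise vary there, so this checked the code and not the rate of false calls. The members, comparisons and alternatives were chosen with earlier results of these data known. Named regions are the 12 with the largest excess, the 8 strongest, the 6 with the largest excess among single-peak members (all among the 12), and 4 each just inside and just outside the rule. Gene lists and markers were planned for an annotation of the files' build and were not used here.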

Additional observations from a re-analysis of the deposited data

How the results depend on the processing

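More regions were wider than narrower at 60M under every alternative run. The ratio of 2.68 became 2.35 with peaks merged across gaps of up to 1 kb, 2.38 in lists of equal length, 2.95 with H3K27me3 regions kept and 2.25 for an excess of at least 2 kb, where 124 and 55 regions were left. Using the widest peak, the outer span, a -log10 p of at least 5, broad regions kept or, chosen after seeing the data, no X chromosome gave 1823 to 2054 wider regions and ratios of 2.57 to 2.68. With 1 library left out, the wider regions numbered 2739 to 3301 and the narrower 987 to 1715, of 29914 to 31455 candidates, with ratios of 1.76 to 3.3. The members' strength difference of 5.72 points was, with regions called anew, 9.08 in lists of equal length and 2.44 to 6.94 with 1 library left out, and 4.13 to 7.31 over the same members. The share extended on 1 side, 83.9%, was 92.2% with strict borders, 81.7% with gaps merged and 87 to 89.7% with 1 library left out. The H3K27me3 difference of 2.43 points ran from 0.669 to 4.19 with 1 library left out. As a replicate block, same-numbered libraries compared in pairs gave 2097 wider and 778 narrower regions of 29639 candidates, and H3K27me3 differences of 5.45 and -0.594 points. The labels do not say whether same-numbered libraries belong together. Deviations of same-numbered H3K4me3 libraries correlated at r = 0.00833 for covered length and 0.0754 for strength percentile over 29639 regions, which does not settle this. The 1 kb bins limit every length, and unknown depth limits every absent peak. Calls read in the libraries not used were added after seeing the data.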

Other observations

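The rule left out shared regions that met H3K27me3 peaks, and a higher share of these was wider. Of the 2619 shared regions wider at 60M, 565 (21.6%) overlapped an H3K27me3 peak. They made up 11.6% of the 4885 shared regions with such an overlap, beside 6.77% of the 30344 without. Of the 983 shared regions with a single H3K4me3 peak of at least 5 kb in all 4 lists, 66 (6.71%) were wider. Both shares use the same lists and lengths as the rule and are descriptions, with regions as units.

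Of the 14 members with an excess of 3 kb, 2 fall outside the 12 described, which were taken in order of excess and then of mean strength percentile in the 60M lists. They lie on chromosome 4 (150512000 to 150515999) and chromosome 16 (95669000 to 95672999). Both covered 4 kb in both 60M libraries and 1 kb in both 5M libraries. Their strength percentiles were 31.9 and 34.2 at 60M and 19.1 in both libraries at 5M on chromosome 4, and 26.6 and 25.5 at 60M and 9.56 and 10.6 at 5M on chromosome 16.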
